A study of Mus musculus with 24 samples.

Results

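The genes described here are 10 markers of blood vessel lining in the mouse, Pecam1, Cdh5, Kdr, Flt1, Tek, Tie1, Erg, Sox17, Sox18 and Emcn, out of 21631 protein-coding genes on the autosomes and X. They were chosen by name as endothelial genes and read through the open chromatin and H3K27ac peaks assigned to them, as a reading of vessels in dissected cartilage. A peak was given to the gene whose span holds its midpoint, or otherwise to the nearest protein-coding gene within 1 Mb. ATAC-seq, which marks open chromatin by transposase insertion, gave 3 libraries of E14.5 Meckel's cartilage (MC), the rod around which the lower jaw forms, 3 of E14.5 forelimb cartilage (FL) and 2 of E12.5 mandibular process. CUT&Tag for H3K27ac, an acetylation found at active promoters and enhancers, gave 1 list per library and 1 combined list each for MC and FL at E14.5. All of these embryos were wild type and of the C57BL/6 strain. MC was taken as dissected bars and the forelimb cartilage after the tissue around it had been removed, both then being digested to single cells. The labels call the source chondrocytes, and the protocols name no sorting step. For the E12.5 pair, titles and protocols name mandibular ATAC-seq while the descriptions name E14.5 Hi-C, and the titles and protocols were followed. The labels do not state whether replicates were separate animals, litters or pools, so p-values measure the spread between these libraries, which may be technical.

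Endothelial cells line blood vessels, and these genes cover their main working parts. Kdr and Flt1 encode receptors for vascular endothelial growth factor, Tek and Tie1 the angiopoietin receptor and its partner, Pecam1 and Cdh5 adhesion proteins of the junctions between the cells, Emcn a surface mucin, and Erg, Sox17 and Sox18 transcription factors. Growth cartilage is largely free of vessels in its interior, while vessels run in the perichondrium and in the mesenchyme around it. In bulk chromatin, fewer endothelial cells and less open chromatin per cell cannot be told apart.

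The single ATAC lists held 43205 to 54192 peaks in MC, 47152 to 70636 in FL, and 74706 and 70042 in E12.5 mandible. They covered 43.9 to 46.6 Mb in MC and 40.7 to 53.0 Mb in FL. E12.5 mandible replicate 1 stood apart, covering 85.6 Mb against 48.2 Mb in replicate 2, so the kilobases under peaks per gene were scaled to the same total in every list. Read counts are not in these lists and the sequencing depth is unknown. Of chondrocyte markers, 9 of 12 had an ATAC peak within 1 kb of a gene end in all 8 lists, against 52.1% of all protein-coding genes. The count was 10 of 12 in MC, in FL and also in E12.5 mandible, so it does not set the cartilages apart. For markers of other cells it was 7 of 12 for mural cells, 6 of 12 for neurons and Schwann cells, 2 of 12 each for erythroid cells, macrophages with leukocytes, and epithelium, and 0 of 12 for skeletal muscle in all 8 lists.

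RefSeq (GRCm38.p6) promoter windows, from 250 bases before to 50 after a gene's start, could be matched for 6 of the 10 genes, namely Flt1, Kdr, Tek, Tie1, Emcn and Erg. The windows of 5 of them are printed because they run from starts that were open in every ATAC library to starts that were open in none. Capitals mark CG dinucleotides, and each window reads 5′ to 3′ on the strand of its gene.

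Flt1: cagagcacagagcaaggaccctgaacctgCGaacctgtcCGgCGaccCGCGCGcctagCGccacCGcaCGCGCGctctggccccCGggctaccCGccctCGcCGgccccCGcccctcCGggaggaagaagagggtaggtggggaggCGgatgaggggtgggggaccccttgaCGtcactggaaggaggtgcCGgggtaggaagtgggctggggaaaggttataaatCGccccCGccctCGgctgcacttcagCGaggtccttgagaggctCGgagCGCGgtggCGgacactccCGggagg

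Kdr: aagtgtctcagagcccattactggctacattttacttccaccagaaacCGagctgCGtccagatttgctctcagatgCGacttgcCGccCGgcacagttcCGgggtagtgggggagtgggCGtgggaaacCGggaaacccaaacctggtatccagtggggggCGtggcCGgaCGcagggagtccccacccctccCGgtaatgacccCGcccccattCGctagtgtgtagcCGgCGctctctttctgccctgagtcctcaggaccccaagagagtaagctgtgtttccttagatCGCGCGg

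Tek: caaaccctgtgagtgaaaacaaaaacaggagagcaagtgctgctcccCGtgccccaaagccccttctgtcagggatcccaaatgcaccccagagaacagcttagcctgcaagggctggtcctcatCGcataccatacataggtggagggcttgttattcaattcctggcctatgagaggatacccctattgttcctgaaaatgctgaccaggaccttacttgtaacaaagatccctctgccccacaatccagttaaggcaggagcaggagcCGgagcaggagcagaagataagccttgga

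Tie1: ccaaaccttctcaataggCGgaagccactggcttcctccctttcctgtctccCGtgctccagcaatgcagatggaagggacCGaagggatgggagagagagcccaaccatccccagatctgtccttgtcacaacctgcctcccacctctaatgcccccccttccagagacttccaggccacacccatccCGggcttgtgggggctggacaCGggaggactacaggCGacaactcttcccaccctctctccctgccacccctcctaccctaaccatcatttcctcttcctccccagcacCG

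Emcn: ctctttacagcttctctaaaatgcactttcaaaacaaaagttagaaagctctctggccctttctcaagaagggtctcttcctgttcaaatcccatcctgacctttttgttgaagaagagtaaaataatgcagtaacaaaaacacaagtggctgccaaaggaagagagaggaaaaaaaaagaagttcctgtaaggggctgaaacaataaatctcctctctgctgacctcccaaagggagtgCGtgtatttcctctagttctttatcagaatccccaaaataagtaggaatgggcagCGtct

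The Flt1 window (chr5:147725962-147726261, minus strand) and the Kdr window (chr5:75978406-75978705, minus strand) were under a peak in all 8 libraries. They held 29 and 19 CG dinucleotides, with CpG observed-to-expected ratios of 0.78 and 0.69. The Tek window (chr4:94739039-94739338, plus strand) held 3, a ratio of 0.15, and was under a peak in 6 of 8 libraries, all but MC replicate 1 and E12.5 mandible replicate 1. The CpG-poor Tie1 window (chr4:118489800-118490099, minus strand, ratio 0.29) and Emcn window (chr3:137340828-137341127, plus strand, ratio 0.16) were under a peak in 0 of 8. Erg has 3 listed starts. The most upstream, with a ratio of 0.94, was under a peak in 5 of 8 libraries, and the other pair, with ratios of 0.28 and 0.19, in 0 of 8.

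Across 32619 listed promoter windows, 35.0% were under a peak in every library, 73.2% of those with a CpG ratio of 0.5 or more and 7.2% of those below it. Thus the endothelial starts that were always open, Flt1 and Kdr, were of the CpG-rich class that is open at most genes. An ETS core, read as AGGAAG or CGGAAG on either strand, occurred 3 times in the Tie1 window and 2 times each in the Emcn and Flt1 windows, was not found in the Kdr or Tek windows, and occurred in 46.3% of all windows. A SOX core, ACAAT on either strand, occurred 2 times in the Tek window and 1 time in the Emcn window, against 30.7% of all windows holding it. A GATA core, AGATAA, occurred 1 time in the Tek window and in 11.2% of all windows, and an AP-1 motif, TGANTCA, in none of the 5 printed windows and in 7.8% of all windows. No motif of these contains another, and a match describes letters only, not binding.

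Because the gene table used for all 10 has no strand, open gene ends were scored within 1 kb of either end. Kdr, Flt1 and Erg had an ATAC peak at an end in all 8 libraries, and Tek in 7, missing in E12.5 mandible replicate 1. Sox18 had one in 5 libraries, Sox17 in 4, Cdh5 in 3 and Tie1 in 2. Pecam1 and Emcn had none in any library. Within 2.5 kb of an end, Cdh5 and Sox17 had a peak in 7 libraries and Pecam1 in 2, while Emcn still had none.

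**Figure D1:**
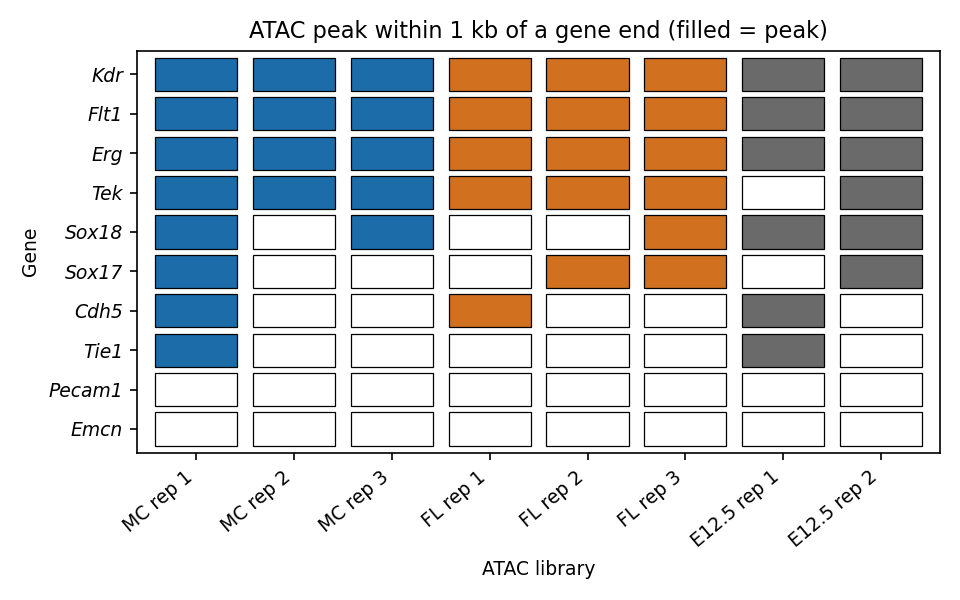
Presence of an ATAC peak within 1 kb of either gene end, with genes in rows and the 8 libraries in columns (MC, FL, then E12.5 mandible). Filled cells have a peak, and the rows run from Kdr, Flt1 and Erg with 8 libraries down to Pecam1 and Emcn with 0.

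In all, 3 of 10 endothelial genes had an end peak in every one of the 8 lists, against 52.1% of all protein-coding genes. Within 1 kb the count by group was 4 of 10 in every MC list (56.9% of all genes), 4 of 10 in every FL list (58.1%) and 4 of 10 in both E12.5 lists (58.8%). The fourth gene beside Kdr, Flt1 and Erg was Tek in MC and FL and Sox18 in E12.5 mandible. Among other genes of the vessel wall, listed by hand, the share in all 8 lists was 2 of 15 surface and junction genes, 4 of 11 endothelial transcription factors, 14 of 18 receptors and signalling genes, 6 of 9 vascular ligands and 7 of 12 markers of mural cells. Of the receptors, Notch1, Nrp1 and Nrp2 are also used by many cell types besides endothelium.

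Much of the open chromatin given to these genes lay outside them. For Cdh5, the adherens junction cadherin of vessels, 1.7% of the assigned cover had its midpoint inside the gene, and over the 8 libraries 4 peaks lay inside and 179 outside. Its left neighbour Cdh11, a cadherin of mesenchymal cells, is 1316.1 kb away, so every peak up to 658 kb to that side is given to Cdh5. For Emcn 5.6% was inside, with Ppp3ca 403.3 kb to its left. The other 8 genes had between 44.2% (Kdr) and 76.1% (Pecam1) of their cover inside. The large values of Cdh5 below are thus values of its neighbourhood, and the cover inside Cdh5 itself was 1.22, 0 and 0 kb in MC, 0 kb in all 3 FL libraries, and 1.13 and 0 kb in E12.5 mandible.

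**Figure D2:**
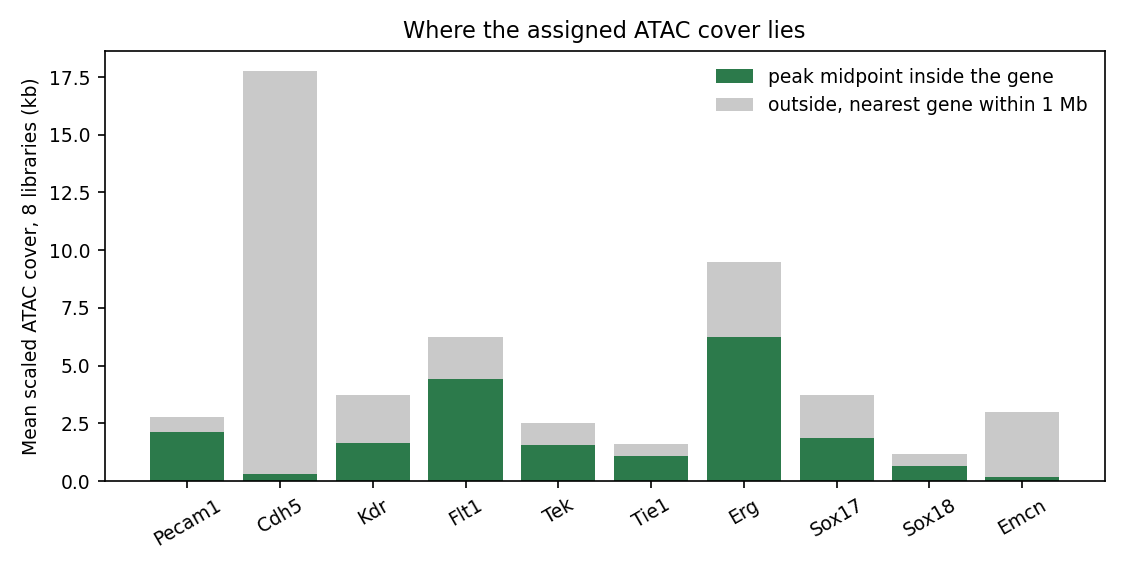
Mean scaled ATAC cover per gene over the 8 libraries, in kb, split into peaks with their midpoint inside the gene (green) and peaks outside for which it is the nearest gene (grey). Of the Cdh5 bar 0.29 kb is inside, while most of the bars of Erg, Flt1 and Pecam1 is inside.

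All levels that follow are scaled kilobases under ATAC peaks, in replicate order. Among the receptors, Kdr, the main signalling receptor for vascular endothelial growth factor A, had 4.27, 4.19 and 5.15 kb in MC, 3.79, 5.06 and 3.08 kb in FL, with 1.11 and 2.97 kb in E12.5 mandible. Both E12.5 values lay below every value of either cartilage. Flt1, a receptor that binds the same ligand and can hold it away from Kdr, had 6.61, 6.26 and 6.10 kb in MC, 5.52, 8.43 and 6.23 kb in FL, with 5.59 and 5.34 kb in E12.5 mandible. Its FL libraries spanned all MC values.

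Tek, the angiopoietin receptor, had 3.10, 2.65 and 2.07 kb in MC, 3.99, 3.08 and 2.16 kb in FL, with 0 and 2.99 kb in E12.5 mandible. The 0 was in replicate 1, and replicate 2 lay within both cartilages. Tie1, its receptor partner, had 3.01, 0.53 and 0 kb in MC, 0.85, 0.40 and 0 kb in FL, with 7.17 and 0.74 kb in E12.5 mandible. The high Tie1 values came from MC replicate 1 and E12.5 mandible replicate 1, which were the same libraries that had a peak at its end.

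Of the junction and surface genes, Pecam1, an adhesion molecule of endothelium, platelets and leukocytes, had 1.57, 5.15 and 2.76 kb in MC, 1.94, 1.98 and 0.81 kb in FL, with 5.45 and 2.64 kb in E12.5 mandible. Every FL value lay below both E12.5 values, and MC overlapped both groups. Cdh5, with its neighbourhood, had 19.2, 17.5 and 18.0 kb in MC, 20.7, 18.8 and 20.1 kb in FL, with 10.9 and 16.8 kb in E12.5 mandible. MC and FL overlapped, and both E12.5 values lay below every value of either cartilage.

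Emcn, a sialomucin of capillary and venous endothelium, was the 1 gene whose cartilage groups did not overlap. It had 2.14, 1.26 and 2.35 kb in MC libraries and 4.21, 5.24 and 4.60 kb in FL libraries, with 0 and 4.24 kb in E12.5 mandible. The cover inside Emcn was 0 kb in the 3 MC libraries, 0.32, 1.03 and 0 kb in FL and 0 kb in both E12.5 libraries, so the FL excess lay mostly in the flanks.

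Among the transcription factors, Erg, an ETS factor of endothelium that is also known from developing cartilage and joints, had 8.49, 8.47 and 11.5 kb in MC, 9.73, 13.6 and 11.6 kb in FL, with 3.81 and 8.68 kb in E12.5 mandible. The lower E12.5 value was in replicate 1. Sox17, a SoxF factor of arterial endothelium, had 5.07, 2.83 and 2.33 kb in MC, 3.09, 4.43 and 3.75 kb in FL, with 1.34 and 6.85 kb in E12.5 mandible, whose pair enclosed all cartilage values. Sox18, a SoxF factor of vascular and lymphatic development, had 0.43, 0 and 2.95 kb in MC, 0.44, 0 and 1.55 kb in FL, with 1.53 and 2.41 kb in E12.5 mandible. A library without Sox18 cover occurred in both cartilages.

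**Figure D3:**
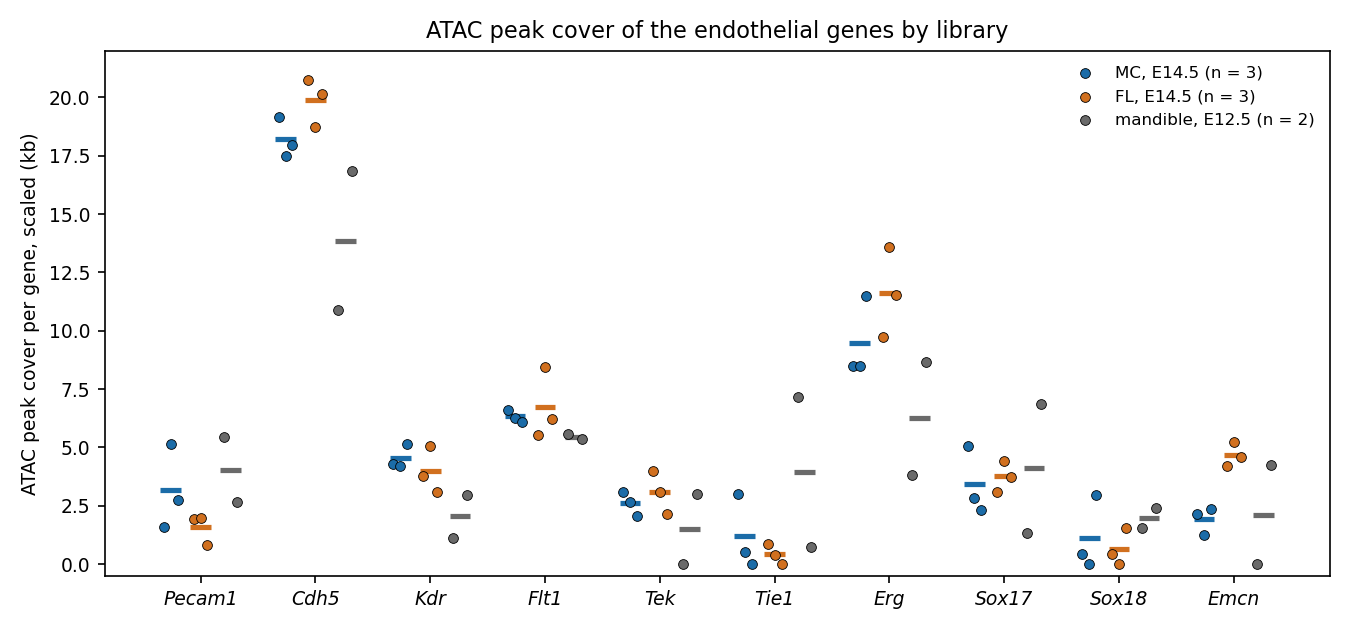
Scaled ATAC peak cover per gene in kb, 1 point per library with the group mean as a short line, for MC (3 libraries), FL (3) and E12.5 mandible (2). MC and FL points intermix at every gene but Emcn, where MC lies between 1.26 and 2.35 kb and FL between 4.21 and 5.24 kb, and the E12.5 pair is wide at Tie1, Sox17, Tek and Emcn.

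Summed over the 10 genes, cover was 48.9 to 53.9 kb per library in MC and 53.8 to 60.9 kb in FL, with 36.9 and 53.7 kb in E12.5 mandible. Without Cdh5 and its neighbourhood the sums were 31.3 to 35.2 kb in MC libraries and 33.6 to 42.2 kb in FL libraries, which also overlap. The 15 further surface and junction genes had 33.5 to 42.1 kb in MC libraries and 31.7 to 33.8 kb in FL libraries, again overlapping. Of their log2 differences 11 of 15 were positive, against 53.1% over all genes tested. In the authors' combined lists the direction was not the same. There 4 of 12 were higher in MC for ATAC (58.5% of all genes) and 5 of 15 for H3K27ac (52.3%). The 11 further endothelial transcription factors summed to 64.3 to 68.8 kb in MC libraries and 72.1 to 74.1 kb in FL libraries, which did not overlap. Their E12.5 sums of 38.8 and 78.7 kb enclosed both. The vascular ligands did not overlap either, with 40.1 to 42.4 kb in MC and 48.2 to 53.7 kb in FL. The receptors and signalling genes did, with 86.0 to 101.3 kb in MC and 87.5 to 98.8 kb in FL. Differences between sums were not tested. Markers of other cells were read in the same libraries, 12 genes for each, and for these sums the lower E12.5 value is given first. Mural cell markers summed to 37.8 to 52.8 kb in MC, 34.9 to 39.2 kb in FL, with 39.5 and 60.9 kb in E12.5 mandible. Chondrocyte markers summed to 82.8 to 87.9 kb in MC, 66.4 to 78.7 kb in FL, with 55.1 and 106.3 kb in E12.5 mandible. Erythroid markers summed to 6.1 to 8.1 kb in MC, 5.5 to 7.5 kb in FL, with 7.4 and 15.0 kb in E12.5 mandible, and 5 of 12 were at 0 in all 8 libraries. Macrophage and leukocyte markers summed to 23.7 to 27.8 kb in MC, 26.7 to 31.6 kb in FL, with 28.2 and 42.1 kb in E12.5 mandible, and 2 of 12 were at 0 throughout. Epithelial markers summed to 18.6 to 29.8 kb in MC, 21.6 to 26.7 kb in FL, with 27.3 and 32.3 kb in E12.5 mandible. Skeletal muscle markers summed to 13.2 to 19.8 kb in MC, 13.5 to 21.0 kb in FL, with 19.0 and 56.7 kb in E12.5 mandible. Neuron and Schwann cell markers summed to 30.4 to 43.1 kb in MC, 33.1 to 34.6 kb in FL, with 43.6 and 51.8 kb in E12.5 mandible. The part of these cells in the values of the endothelial genes was not tested.

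The first comparison asks whether the endothelial genes were more or less open in MC than in FL. None of the 10 passed a Benjamini-Hochberg adjusted p of 0.05 in limma, and none had an unadjusted p under 0.05. Genome-wide, 0.0% of 16173 genes were called at the adjusted threshold and 5.2% had an unadjusted p under 0.05. Of the 10, 4 had a positive and 6 a negative log2 difference, with a median of -0.09 against 0.03 over all genes tested. The groups did not overlap at 1 of 10 genes, Emcn, which was lower in MC, against 18.2% of all genes in either direction (9.18% higher and 8.99% lower in MC). Emcn averaged 1.92 ± 0.58 kb in MC against 4.68 ± 0.52 kb in FL (SD, n = 3 each), a limma log2 difference of -1.13 ± 0.66 (SE) on the log2(kb + 0.5) scale with an adjusted p of 1. Pecam1 had the largest positive difference, 0.76 ± 0.46 (SE), with an adjusted p of 1 by limma and overlapping groups.

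The next comparisons set each E14.5 cartilage against E12.5 mandible, and they share the same 2 E12.5 libraries. Stage cannot be told apart from dissection in either, since cartilage is set against mandibular process, nor from organ in the FL comparison. In limma, 0 of 10 endothelial genes passed in either one, as did 0.0% of all genes in each, while 5.88% of genes for MC and 12.9% for FL had an unadjusted p under 0.05. Kdr was the 1 endothelial gene under that level for MC, with a log2 difference of 1.08 ± 0.42 (SE) and a limma adjusted p of 0.701, and with 0.90 ± 0.42 and an adjusted p of 0.392 for FL. Emcn was the 1 for FL, with 1.75 ± 0.74 (SE) and a limma adjusted p of 0.378. The median over the 10 genes was 0.30 for MC and 0.40 for FL, against 0.23 and 0.25 over all genes tested.

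MC and E12.5 mandible did not overlap at 3 of 10 genes, Kdr, Flt1 and Cdh5, all higher in MC, against 18.4% of all genes in either direction (2340 genes higher and 3.94% lower in MC). FL and E12.5 mandible did not overlap at 4 of 10, with Kdr, Erg and Cdh5 higher and Pecam1 lower in FL, against 26.3% of all genes in either direction (16.5% higher and 9.76% lower in FL). For Flt1 and Cdh5 the sign depends on the scaling, since without it the log2 difference for MC was -0.28 at Flt1 and -0.08 at Cdh5. The median of all genes for MC without scaling was -0.14, so Flt1 lay below it and Cdh5 above it. With scaling kept but the nearest gene taken within 100 kb, Cdh5 was at -0.20 for FL, against a median of 0.27 over all genes.

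The comparisons with E12.5 mandible rest on which E12.5 library is used. With replicate 1 left out, limma called 0 genes in either comparison, and the log2 differences of MC against E12.5 mandible were 0.52 for Kdr, -0.18 for Tek, 0.11 for Erg and -0.99 for Emcn. For FL they were 0.34 for Kdr, 0.39 for Erg, 0.12 for Emcn and -0.52 for Tie1, and Tek was at 0.00. With replicate 2 left out, the log2 differences of MC against E12.5 mandible were 1.64 for Kdr, 2.63 for Tek, 1.20 for Erg and 2.25 for Emcn. Those of FL were 1.45 for Kdr, 2.81 for Tek, 1.48 for Erg, 3.38 for Emcn and -3.18 for Tie1. The lone E12.5 library is assumed to vary like the other groups, so calls from that fit are not given here.

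**Figure D4:**
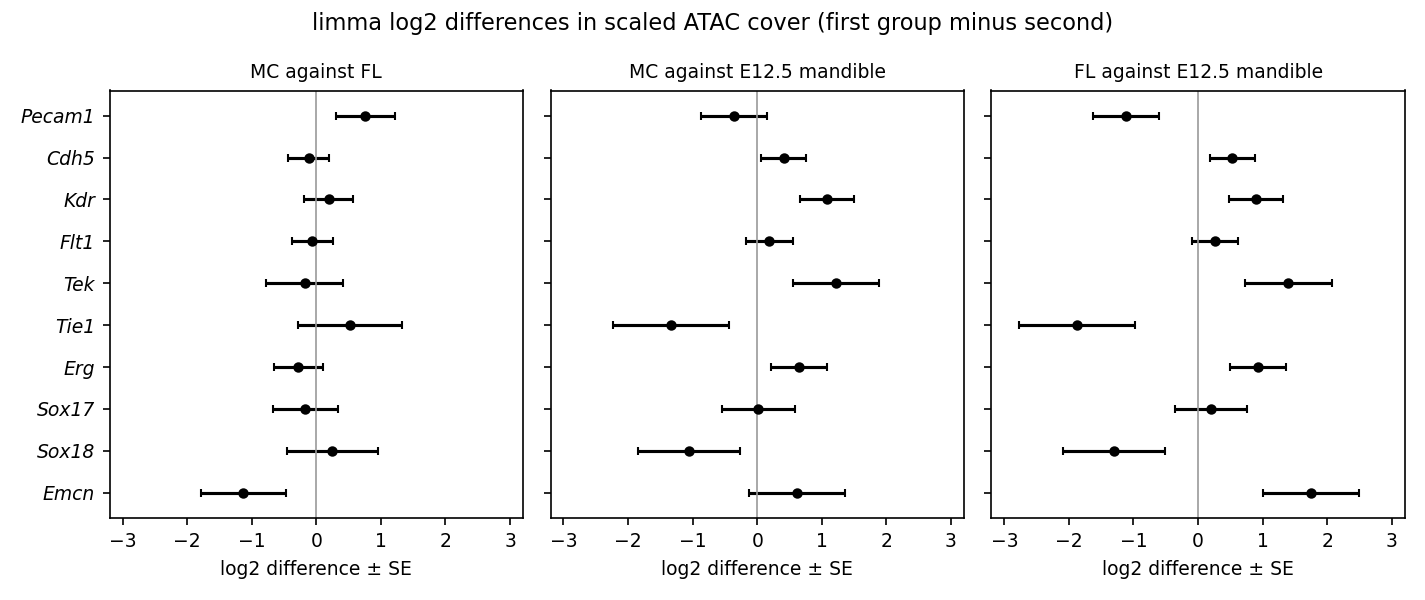
Log2 differences in scaled ATAC cover from limma with standard errors, for MC minus FL, MC minus E12.5 mandible and FL minus E12.5 mandible, with 1 row per gene. No gene passed the adjusted threshold, and the widest spread of values is in FL against E12.5 mandible, between -1.87 for Tie1 and 1.75 for Emcn.

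The authors' combined ATAC lists, 1 per group, give a single value per gene with no error. In MC against FL, 0 of the 9 endothelial genes with cover differed by 2-fold or more, against 11.8% of all genes in either direction (5.52% higher and 6.33% lower in MC). The widest ratio was at Tek, with 1.31 kb listed in MC and 2.77 kb in FL. Sox18 had no peak in either list.

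Against E12.5 mandible, 2 of 10 were 2-fold or more higher in MC (Kdr and Emcn) and 3 lower (Tie1, Sox18 and, close to the limit, Pecam1), against 26.8% of all genes in either direction (12.1% higher and 14.7% lower in MC). In FL, 3 were higher (Kdr, Tek and Emcn) and the same 3 lower, against 33.9% (16.4% higher and 17.5% lower in FL). Tie1 had 1 peak of 0.444 kb in the MC list and 1 of 0.498 kb in the FL list, against 6 peaks of 8.13 kb in E12.5 mandible. Kdr had 2.77 kb in the MC list and 2.34 kb in the FL list, against 1.19 kb in E12.5 mandible. The combined E12.5 list follows replicate 1 at Tie1, where replicate 1 had 7.17 and replicate 2 had 0.74 scaled kb.

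When the peaks of all 8 libraries were merged, 207 of 157342 regions belonged to the endothelial genes. Of these, 9 (4.3%) were called in every library, against 10.0% of all regions, and 99 (47.8%) in 1 library, against 52.1%. Pecam1, Tek, Tie1, Sox18 and Emcn had no region called in all 8.

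Regions called in every library lay at 5 of the genes. At Flt1 and Kdr they were the gene starts, chr5:147724845-147727559 and chr5:75977447-75979212, and Flt1 had another at chr5:147777572-147779385, 52.0 kb outside the gene. Erg had a region that holds its upstream start, chr16:95585060-95587011, and a region 17.5 kb outside its other end, chr16:95340791-95342607. The upstream Erg start window itself was under a peak in 5 of 8 libraries. Sox17 had 1 region, 74.2 kb outside the gene, at chr1:4570931-4572251. Cdh5 had 3, all outside it, at chr8:104028154-104029441 (72.8 kb away), chr8:104021531-104023908 (78.9 kb) and chr8:103813347-103815842 (287.0 kb).

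The most often called region of the other genes was chr4:94737435-94739640 at the start of Tek, in 7 libraries, and chr11:106671352-106675795 inside Pecam1, in 7. Sox18, Tie1 and Emcn reached 5, 4 and 6 libraries.

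Regions called in every MC library and no FL library numbered 3 at these genes, against 0.367% of all regions. They were chr5:75892430-75894114, 39.6 kb outside Kdr and called in no E12.5 library, and chr8:104098701-104100255 and chr8:103873493-103874851, 2.1 and 227.4 kb outside Cdh5 and both called in the 2 E12.5 libraries. Regions called in every FL library and no MC library numbered 6, against 1.62%. Emcn had 2, chr3:137280779-137281564 at 59.9 kb and chr3:137228052-137228807 at 112.6 kb outside the gene, Kdr had chr5:76043143-76044164 at 64.6 kb, and Cdh5 had chr8:104061221-104062777, chr8:103897387-103898087 and chr8:103694165-103695052. None of the 9 lay inside a gene of the set.

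Against E12.5 mandible, 3 regions were called in every MC and no E12.5 library (0.892% of all regions) and 8 in every FL and no E12.5 library (2.48%). In the other direction, 3 were called in both E12.5 libraries and no MC library (1.59%) and 6 in both and no FL library (1.81%). Inside Tie1, chr4:118484535-118486943 was called in both E12.5 libraries and in no cartilage library. The same held for chr16:95356395-95357487, 2.2 kb outside Erg, and chr8:104096631-104097338, 4.6 kb outside Cdh5.

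H3K27ac covered genes with many ATAC peaks, such as Erg, and also genes with few, such as Tie1. In the authors' combined lists, Erg had 240 kb in MC against 232 kb in FL, with 81.8% of the gene's span covered in MC and 77.2% in FL. Tie1 had 21.3 kb in MC against 27.6 kb in FL, which covered 80.6% of its span in MC and 100.0% in FL, while 0.0% of its span was under a combined ATAC peak in either cartilage. Pecam1 had 37.5 kb in MC against 65.7 kb in FL, 43.5% and 81.8% of its span, and Cdh5 had 192 kb in MC against 264 kb in FL with 48.4% and 46.4% of its span.

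Pecam1, Cdh5, Tie1 and Sox18 had acetylation at a gene end in both cartilages without a combined ATAC peak there in either. An H3K27ac peak lay at an end of 7 of 10 endothelial genes in MC and 7 of 10 in FL, against 64.9% and 62.3% of all genes. Combined ATAC peaks lay at an end of 5 in MC, 5 in FL and 7 in E12.5 mandible, against 61.2%, 61.8% and 66.0%. Emcn had neither kind of peak at its ends.

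The growth factor receptors had 33.3 kb in MC against 44.5 kb in FL at Kdr, and 34.7 kb in MC against 41.9 kb in FL at Flt1. An MC peak covered the start of each (chr5:75977429-75979750 and chr5:147724870-147727707) and no FL peak covered either start window. Both MC peaks had total signals, 19060 and 17794, under the lowest of any FL peak, 25799, while the MC list reaches down to 16925. The opposite held at Tek, with 4.77 kb in MC against 24.6 kb in FL, where an FL peak of 18.3 kb covered the start and the MC peak did not. Its log2 ratio on the scaled kb + 1 scale was -2.01.

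Sox17 was listed at 0 kb in MC against 6.05 kb in FL. The FL value was a single peak far outside the gene, chr1:4612406-4618457, which holds an ATAC region 119.1 kb away. Of the Sox17 span itself 0.0% was under a peak in either cartilage. Emcn had 7.80 kb in MC against a listed 0 in FL. Its MC peaks had total signals of 17137 and 19358, under the lowest of any FL peak, 25799. A like signal in FL would thus not be listed. Sox18 had 6.65 kb in MC against 0 in FL by assignment, yet 91.0% of its span in MC and 91.5% in FL was under a peak, since the FL peak of chr2:181669991-181697278 has its midpoint nearer to Tcea2. Of the 10 genes, 2 counted as 2-fold or more higher in MC (Sox18 and Emcn, listed at 0 in FL) and 2 as lower (Tek, and Sox17, listed at 0 in MC), against 33.8% of all genes in either direction (18.6% higher and 15.2% lower in MC), and the median log2 ratio was -0.23 against 0.04 over all genes.

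**Figure D5:**
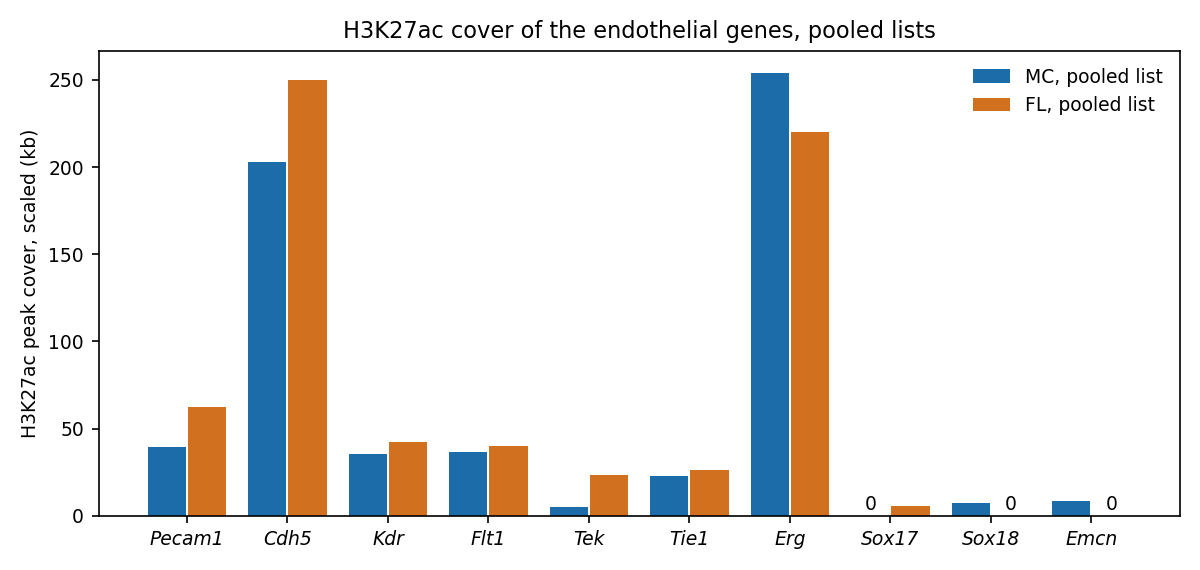
Scaled kb under H3K27ac peaks per gene in the authors' combined lists, MC left of FL, with 1 pooled value per bar and no error. Erg reaches 254 kb in MC against 220 kb in FL, Cdh5 203 kb in MC against 250 kb in FL, Pecam1 62.3 kb in FL, and a printed 0 marks a gene with no assigned peak.

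Of the 207 ATAC regions at these genes, 52.2% lay under an MC and 58.0% under an FL H3K27ac peak, against 55.5% and 55.4% of all regions. The shares differed widely between genes. At Erg it was 34 regions with the MC mark and 32 with the FL mark out of 38, and at Emcn 1 and 0 out of 11. At Flt1 it was 10 and 12 out of 29, and at Sox17 0 and 1 out of 12. The single-library H3K27ac lists held short peaks of low signal, 64 to 72 at these genes in MC and 52 to 55 in FL. Of these, 14.9% to 18.8% in MC and 23.6% to 28.8% in FL overlapped the combined list of their tissue, against 10.3% to 12.6% of all peaks in the same lists, and the single lists were not used for comparisons.

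Further endothelial genes from hand-written lists were tested in the same fit. None of 15 surface and junction genes, 11 transcription factors, 18 receptors and signalling genes or 9 vascular ligands passed the adjusted threshold in any of the 3 limma comparisons. Unadjusted p-values were under 0.05 in 1, 1, 1 and 1 of them for MC against FL, in 1, 1, 0 and 0 for MC against E12.5 mandible, and in 5, 1, 4 and 2 for FL against E12.5 mandible, where the shares over all genes were 5.2%, 5.88% and 12.9% in that order of comparisons. The smallest p-values for MC against FL were at Flt4, the receptor of lymphatic growth, with 5.64, 4.38 and 2.49 kb in MC libraries and 0, 2.65 and 0.90 kb in FL libraries, and at Lyl1, a haematopoietic and endothelial transcription factor, both on the MC side. On the FL side were Ptprb, the endothelial phosphatase of the Tek and Cdh5 complexes, with 1.89, 0.40 and 0.30 kb in MC libraries and 2.0, 3.85 and 3.12 kb in FL libraries, and Vegfc, a ligand of Flt4, with 0.66, 0.45 and 0.95 kb in MC libraries and 2.54, 1.61 and 1.76 kb in FL libraries. The limma adjusted p was 0.944 for all 4.

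Against E12.5 mandible the smallest p-values were shared by the cartilages at Elk3, an ETS factor, Nrp1, a co-receptor for vascular endothelial growth factor, and Eng, a co-receptor of the transforming growth factor family. Elk3 had 14.22, 13.99 and 11.75 kb in MC libraries and 13.46, 10.00 and 11.04 kb in FL libraries, against 3.38 and 7.15 kb in E12.5 mandible. Eng had 2.34, 0.69 and 1.35 kb in MC libraries and 0.49, 1.31 and 1.28 kb in FL libraries, against 8.34 and 2.94 kb in E12.5 mandible. Nrp1 had 9.38, 11.17 and 9.11 kb in MC libraries and 12.48, 12.54 and 12.32 kb in FL libraries, against 1.78 and 8.93 kb in E12.5 mandible. Elk3 and Nrp1 were thus higher and Eng lower in every cartilage library than in both E12.5 libraries. They were picked for small p-values, which favours such a separation. Of all genes, 18.4% for MC and 26.3% for FL did not overlap E12.5 mandible in either direction. For Nrp1 in MC the gap was narrow, 9.11 against 8.93 kb. The limma adjusted p was 0.701 for all 3 in MC and 0.377 in FL. Further genes named by the same rule were Sox7, with 0.92 ± 0.66 kb in MC against 1.95 ± 0.07 kb in E12.5 mandible (SD, n = 3 and 2), and Notch1, with 8.85 ± 1.00 kb in FL and 24.9 ± 12.9 kb in E12.5 mandible (SD, n = 3 and 2). In the combined H3K27ac lists Eng was listed at 0 in MC and 49.3 kb in FL, Plvap, a protein of endothelial diaphragms, at 0 in MC and 5.33 kb in FL, Sox7 at 10.7 kb in MC against 0 in FL, and Gja4, a connexin, at 10.6 kb in MC against 0 in FL. These were picked for the largest ratios, while 33.8% of all genes differed by 2-fold or more in either direction. A listed 0 can also come from a peak given to a neighbour or from signal under the lowest listed, and neither was checked for these genes.

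As a description of which other genes varied alike, each gene's 8 ATAC values were correlated with the mean standardized pattern of the 10 endothelial genes. Outside the lists, Med4 had the highest Pearson r at 0.997, followed by Vps13b at 0.983, Ube2e3 at 0.982, Coq10b at 0.981 and Map3k5 at 0.98, each over 8 libraries that share scaling. The pattern was -0.99 in E12.5 mandible replicate 1 and between -0.06 and 0.42 in the other 7, so the likeness turns on that library. Within the set r was highest for Tek at 0.94 and negative for Tie1 at -0.64, Pecam1 at -0.58 and Sox18 at -0.27, so the 10 genes did not all vary alike. The mean includes each of the 10 genes' own values, which raises their r, while genes outside the lists are not part of it.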

How the data were processed

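The submitters' processing notes name the tools Trim Galore, Bowtie2, SAMtools, Genrich and SEACR and the mouse build mm10, with no role or order. Versions and thresholds are not given in the sources used here. The deposited ATAC lists hold a peak score and the deposited H3K27ac lists a total and a highest signal from the authors. Scores served only to rank peaks within a list, and signals also to set single H3K27ac peaks beside the lowest signal in each combined list. Single lists are per library, and combined lists are the authors' pools with no SD or n.

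Peaks on the autosomes and X were assigned to the RefSeq spans of GRCm38.p6, and the kb per gene were scaled to the same total per list. For ATAC, log2(kb + 0.5) of genes with a mean of 0.3 kb or more entered limma 3.58.1 (R 4.3.3), all 8 libraries in 1 fit, with Benjamini-Hochberg adjustment over all genes and a threshold of 0.05. Combined H3K27ac lists used a pseudocount of 1 kb and genes with a mean of 1 kb or more. Regions merge overlapping peaks of the 8 lists, and a list calls a region that one of its peaks overlaps by 1 bp. The fit was also run on simulated data, and the outcome is not given here. Other steps ran in Python 3.11.15 (pandas 2.3.3, numpy 2.4.6, matplotlib 3.10.9).

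The members and gene lists were chosen with earlier results of these data known. Named genes are all 10 members, the further endothelial genes and ligands past the threshold or else the 2 of smallest p in each direction, the 2 of largest H3K27ac ratio in each direction, and the 5 genes most like the mean pattern. Alternatives were other pseudocounts, filters, scalings, assignments and left-out libraries. Hi-C and 4C samples were not analysed here.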

Additional observations from a re-analysis of the deposited data

How the results depend on the processing

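No gene was called in MC against FL under any alternative tried, with 475 to 2233 genes at an unadjusted limma p under 0.05. Against E12.5 mandible the number of genes called by limma lay between 0 and 4053 for MC and between 0 and 6332 for FL when 1 library was left out, the upper values without E12.5 mandible replicate 2, where the single E12.5 library left gives no spread of its own. Those fits also gave the gained calls, 5 of 198 gene values under alternatives for MC and 6 of 198 for FL, against 0 of 198 for MC against FL. With the replicate number as a block 0 genes were called in each comparison. Same-numbered libraries of different groups correlated between -0.23 and 0.05 in their deviations from the group means, and differently numbered ones between -0.18 and 0.23. Between MC and FL the same-numbered pairs had 0.04 to 0.05 and the others -0.05 to 0. Deviations within groups of 2 or 3 libraries are tied to each other. These values therefore cannot show whether a number marks a shared batch.

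Log2 differences took the other sign in 12, 11 and 5 of 198 values for MC against FL, MC against E12.5 mandible and FL against E12.5 mandible, all without an adjusted call, and the cause was not tested. In MC against FL these were Cdh5 at 0.28 and, in MC against E12.5 mandible and FL against E12.5 mandible, Sox17 at -0.11 and Cdh5 at -0.20, with the nearest gene taken within 100 kb. With the number of peaks in place of kb, MC against FL gave 0.24 for Tek and 0.01 for Sox17. With lists trimmed to an equal number of peaks, MC against FL gave 0.26 for Flt1, MC against E12.5 mandible -0.22 for Sox17 and FL against E12.5 mandible -0.10 for Sox17. Without scaling, MC against E12.5 mandible gave -0.08 for Cdh5, -0.28 for Flt1 and -0.38 for Sox17, and FL against E12.5 mandible -0.21 for Flt1 and -0.20 for Sox17. A pseudocount of 2 kb gave -0.04 for Sox17 in MC against E12.5 mandible. Peaks inside the gene span alone, an alternative chosen after seeing the data, gave -0.27 for Kdr, 0.02 for Flt1 and 0.37 for Tek in MC against FL. With 1 library left out, MC against FL ran from -0.19 to 0.10 for Flt1 (positive without FL replicate 2), -0.25 to 1.17 for Tie1 (negative without MC replicate 1), -0.46 to 0.03 for Sox17 (positive without MC replicate 3) and -0.54 to 0.87 for Sox18 (-0.54 without MC replicate 3 and -0.24 without FL replicate 2). MC against E12.5 mandible ran from -0.82 to 0.10 for Pecam1, -0.18 to 2.63 for Tek, -0.96 to 1.02 for Sox17 and -0.99 to 2.25 for Emcn, and FL against E12.5 mandible from -0.79 to 1.20 for Sox17, each with the other sign without E12.5 mandible replicate 1. Sox17 was also -0.26 in MC against E12.5 mandible without MC replicate 1.

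The count of genes with an end peak in all 8 lists was 3 of 10 with a window of 2.5 kb and with the same number of peaks, while at 2.5 kb the counts by group were 6 in MC, 5 in FL and 5 in E12.5 mandible. When a peak had to cover 0.5 of the region, regions called in every list numbered 3, those in MC and not FL 1, in FL and not MC 2, in MC and not E12.5 1, in FL and not E12.5 3, in E12.5 and not MC 0, and in E12.5 and not FL 2. With lists trimmed to equal peak numbers, FL and not MC had 3, MC and not FL had 2, and E12.5 without MC or without FL had 0. In the combined ATAC lists, the endothelial genes 2-fold higher in MC than in E12.5 mandible numbered 0 without scaling, 1 within 100 kb and 1 inside the span alone, and in FL 1 without scaling and 1 inside the span alone. For H3K27ac the number higher in MC was 0 by number of peaks, 1 with the same number of peaks and 1 with each base assigned on its own, and the number lower was 0 by number of peaks, 1 within 100 kb and 1 inside the span alone. Peak lists cannot show signal under the authors' threshold, and with 3, 3 and 2 libraries and unknown depth a gene without a peak is not shown to be closed.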
